A study of Mus musculus with 8 samples.

Results

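Crystallins are the abundant soluble proteins of the eye lens. The α-crystallins Cryaa and Cryab are small heat shock proteins that hold unfolding proteins in solution, while the β-crystallins (Cryba and Crybb genes) and γ-crystallins (Cryg genes) share a fold built of Greek key motifs and serve mainly as refractive proteins of lens fibre cells. Several crystallins are also transcribed in the neural retina, where Cryab is known from glial cells and is induced by stress in many tissues. A whole retina can also carry pieces of lens from the dissection, so crystallin transcripts in it can come from either tissue.

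The 10 crystallin genes (Cryaa, Cryab, Cryba1, Cryba2, Cryba4, Crybb1, Crybb2, Crybb3, Crygd and Crygs) were followed in whole retina from mice aged 2 weeks that were wildtype (WT) or knockout (KO) for Lpcat1. Their probes were found by the RefSeq transcript that each probe is assigned to, which gave 14 probes of 55681 on the array and 10 of 20018 named genes. Lpcat1 encodes lysophosphatidylcholine acyltransferase 1, an enzyme that attaches fatty acids to lysophosphatidylcholine. Total RNA of 4 WT and 4 KO samples was hybridised to 8 Agilent arrays in 1 colour. All samples were labelled as strain C57BL/6, and the methods state that the knockout line arose on a C57BL6/N background and was crossed to C57BL6/J to remove the rd8 mutation of Crb1. The knockout was global and the labels name no treatment. The labels do not say that the samples of a genotype came from separate animals, so the p-values measure the spread between these samples. The levels below are log2 signals scaled to the 75th percentile of the array, so a level of 0 means a signal equal to that percentile, and the level of a probe is read across arrays, since probes of different genes need not bind equally well. A level summed over a list serves only to set arrays side by side.

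All 8 arrays lay on 1 slide, with the WT arrays in one row and the KO arrays in the other, so row and genotype cannot be told apart. Arrays with the same replicate number shared a column of the slide. Between 33110 and 36366 probes per array were well above background, no spot was saturated, and the rod genes Sag and Prph2 were well above background on all 8 arrays, as whole retina should show. The targeted gene Lpcat1 was lower on every KO array, at −0.87 ± 0.06 (SD, n = 4) against −0.41 ± 0.03 in WT (difference −0.46, SE 0.04, limma adjusted p = 0.0036). Whether this probe lies inside the deleted part is not given in the sources used here. Across all tested probes, 992 of 33972 (2.92%) were called between the genotypes, where called means a limma adjusted p under 0.05 together with a change of more than 1.2-fold.

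The upstream sequences of the crystallin genes show what several of them share besides the protein family. Maf and its relatives activate crystallin genes in the lens through an element whose core reads TGCTGA. The 250 bases before the start site were available from RefSeq (build GRCm38.p6) for 9 of the 10 genes (Cryab was the exception). TGCTGA or its reverse complement TCAGCA stood in 7 of the 9 windows (77.8%), against 16.1% of 32851 windows of the same length upstream of mouse genes. The longer form TGCTGAC, which contains the first, stood in 4 of the 9 (44.4%) against 3.81%. A match describes these letters only and is not a binding site. The windows of Cryba4 and Crybb1 are shown because the genes lie head to head with 3302 bases between their start sites, that of Cryaa because its level stood apart on 1 array, and that of Crygd because it had no match and carried the largest difference among the tested crystallins. They are written 5′ to 3′ along each gene's own strand, with the matches in capitals. Their positions are chr5:112252519-112252768 (minus strand) for Cryba4, chr5:112255570-112255819 (plus strand) for Crybb1, chr17:31677681-31677930 (plus strand) for Cryaa and chr1:65063441-65063690 (minus strand) for Crygd.
Cryba4: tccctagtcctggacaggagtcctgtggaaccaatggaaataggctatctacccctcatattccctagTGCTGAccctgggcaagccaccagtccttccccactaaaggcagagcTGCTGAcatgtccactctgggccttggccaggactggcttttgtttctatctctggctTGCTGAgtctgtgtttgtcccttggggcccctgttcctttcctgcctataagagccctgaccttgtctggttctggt
Crybb1: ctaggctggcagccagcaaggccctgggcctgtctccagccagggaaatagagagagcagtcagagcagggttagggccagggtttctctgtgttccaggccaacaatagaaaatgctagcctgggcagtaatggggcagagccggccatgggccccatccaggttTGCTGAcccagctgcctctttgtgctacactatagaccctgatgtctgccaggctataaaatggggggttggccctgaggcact
Cryaa: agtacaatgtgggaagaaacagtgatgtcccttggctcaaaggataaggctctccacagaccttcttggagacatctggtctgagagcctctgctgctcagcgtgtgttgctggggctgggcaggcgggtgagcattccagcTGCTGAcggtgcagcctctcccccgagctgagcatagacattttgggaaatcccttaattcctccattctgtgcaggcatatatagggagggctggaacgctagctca
Crygd: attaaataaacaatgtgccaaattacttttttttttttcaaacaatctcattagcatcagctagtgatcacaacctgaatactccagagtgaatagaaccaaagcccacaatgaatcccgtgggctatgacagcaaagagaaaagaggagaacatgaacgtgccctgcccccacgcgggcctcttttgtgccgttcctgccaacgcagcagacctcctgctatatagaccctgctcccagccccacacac
Cryba4 held 3 matches, beginning 182, 135 and 77 bases before the start site. Crybb1 held 1 match at 84 bases and Cryaa held 1 at 108 bases. Among the windows not shown, Cryba1 (57 bases), Cryba2 (149 bases), Crybb3 (67 bases) and Crygs (200 bases) each held 1 match and Crybb2 held none.

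To ask whether crystallin transcripts moved together or singly, each probe was first compared between the genotypes. Only Cryab was called among the crystallins, and it was higher in KO retina by both of its probes. The other 7 genes that could be tested lay on both sides of 0 and none of them was called. Of the 14 probes, 10 probes of 8 genes were tested, and 2 of these 10 were called higher, against 2.92% of all probes called in either direction, 1.38% called higher and 1.54% called lower. An unadjusted p under 0.05 was reached by 3 of the 10, both Cryab probes and Crygd, against 23.8% of all tested probes. The genotypes did not overlap for 2 of the 10 probes (20%), close to the 17.5% of all tested probes, and both were probes of Cryab. Over the 7 genes above background on all 8 arrays, which leaves out Cryba1 because it entered the test through WT alone, the median difference was 0.04, with 4 genes higher and 3 lower. The median over all tested probes was −0.04. With 4 WT and 4 KO arrays the smallest p of an exact permutation test of 1 probe is 0.0286.

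Cryab, the α-crystallin that is expressed far beyond the lens, had levels of 2.91, 3.04, 3.00 and 3.02 in WT replicates 1 to 4 and of 3.19, 3.28, 3.30 and 3.30 in KO replicates 1 to 4 by its brighter probe (A_55_P1964408). The lowest KO array thus lay above the highest WT array. The difference was 0.28 (SE 0.05), or 1.21-fold with a 95% confidence interval of 1.13 to 1.30 (limma adjusted p = 0.0197, two-sided exact permutation p = 0.0286). The dimmer probe (A_55_P2007656) gave 0.91, 1.00, 1.02 and 1.08 in WT and 1.21, 1.19, 1.30 and 1.36 in KO. Its values did not overlap either, and its difference of 0.26 (SE 0.06) corresponded to 1.2004-fold with an interval of 1.097 to 1.313 (limma adjusted p = 0.0391). This fold lay just over the limit of 1.2. The call was close to its thresholds. Without WT replicate 1, 2 or 3, or KO replicate 2, 3 or 4, neither probe was called, and without WT replicate 4 only the brighter one was. The brighter probe's difference stayed between 0.25 and 0.30 in these runs, with an adjusted p of up to 0.0620. In bulk tissue, a change in the number of cells of a type and a change in RNA per cell cannot be told apart.

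**Figure D1:**
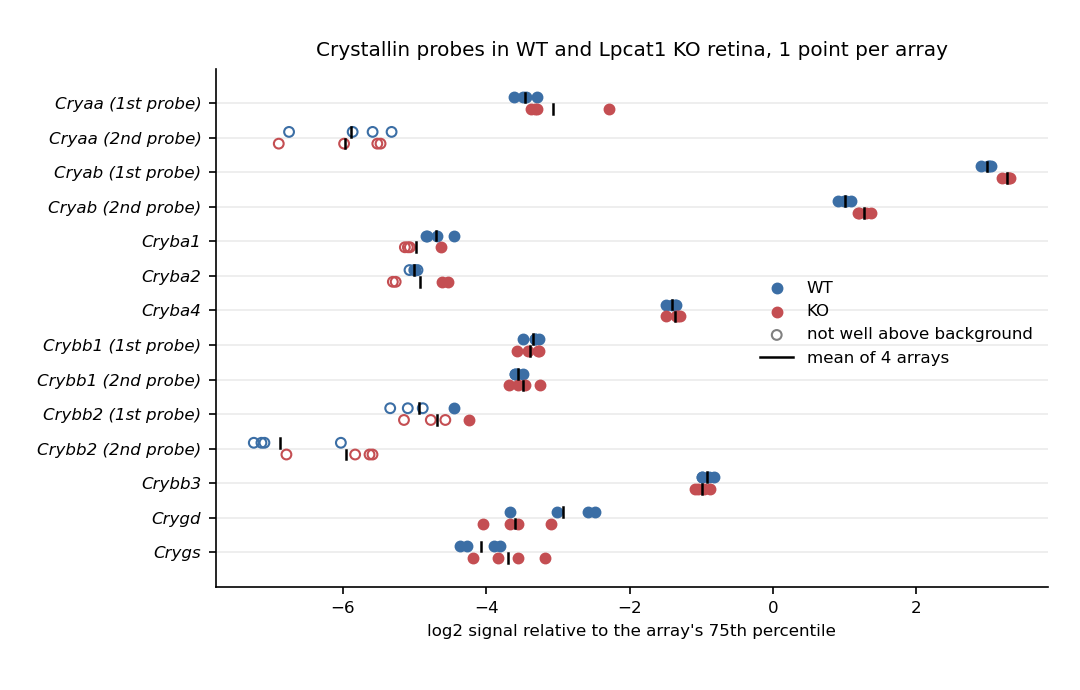
Levels of all 14 crystallin probes on the 4 WT and 4 KO arrays, as log2 signal scaled to each array's 75th percentile (x axis). Filled points were well above background, open points were not, and short lines are means of 4 arrays. Both Cryab probes separate the genotypes, Cryaa has 1 KO array at −2.29 apart from the others, and the second probes of Cryaa and Crybb2 have open points only.

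Cryaa, the α-crystallin largely restricted to the lens, was measured by 1 of its 2 probes. Its levels were −3.49, −3.29, −3.44 and −3.62 in WT and −3.37, −3.32, −3.29 and −2.29 in KO. The first 3 KO arrays lay within or at the edge of the WT range, and KO replicate 4 stood about 1 log2 unit above them. The difference of 0.39 (SE 0.23, 95% confidence interval −0.14 to 0.92) had a limma adjusted p of 0.350, and without KO replicate 4 it was 0.13. After normexp background correction it was 0.19. This alternative models each spot's local background, adds an offset of 50 and then applies quantile normalization. The offset by itself shrinks the log2 differences of dim probes. The second Cryaa probe (A_55_P2007645) was not well above background on any array and was not tested.

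Crygd, a γ-crystallin of the lens fibre core, had levels of −2.49, −2.58, −3.01 and −3.67 in WT and −3.67, −4.05, −3.10 and −3.56 in KO. The 2 groups overlapped, since WT replicate 4 lay among the KO arrays. The difference of −0.66 (SE 0.29, 95% confidence interval −1.32 to 0.00) was the largest in size among the tested crystallins, yet its limma adjusted p was 0.210. It ranged from −0.90 to −0.51 when single arrays were left out and was −0.38 after normexp background correction.

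Crygs, a γ-crystallin of the lens cortex, leaned the other way. Its levels were −3.89, −4.27, −4.36 and −3.81 in WT and −3.84, −4.19, −3.18 and −3.56 in KO, with overlapping groups. The difference was 0.39 (SE 0.22, 95% confidence interval −0.12 to 0.89, limma adjusted p = 0.329). It was 0.22 without KO replicate 3 and 0.11 after normexp background correction. The γ-crystallin genes are close paralogs, and a probe of one may take up signal of another.

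Among the β-crystallins, the acidic members gave small or uncertain differences. Cryba1, which is also active in astrocytes of the eye, exceeded background clearly on the 4 WT arrays and on 1 KO array (replicate 4), so it entered the test through WT alone. Its levels were −4.68, −4.83, −4.45 and −4.83 in WT and −5.07, −5.10, −5.14 and −4.63 in KO, averaged over 10 spots per array. The difference was −0.28 (SE 0.13, limma adjusted p = 0.233). After normexp background correction it was −0.057. Cryba4 lay between −1.49 and −1.35 in WT and between −1.49 and −1.30 in KO, with a difference of 0.04 (95% confidence interval −0.09 to 0.16, limma adjusted p = 0.710). Cryba2 was well above background on 1 WT and 2 KO arrays and was not tested.

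The ranges of the tested basic members overlapped between the genotypes. Crybb3, a basic β-crystallin, lay between −0.99 and −0.83 in WT and between −1.09 and −0.88 in KO (difference −0.07, 95% confidence interval −0.21 to 0.07, limma adjusted p = 0.537). The 2 probes of Crybb1 gave differences of −0.04 (95% confidence interval −0.22 to 0.14) and 0.07 (−0.13 to 0.27), on opposite sides of 0. Crybb2 had 1 probe above background on 1 array of each genotype and 1 probe above it on none, and neither was tested.

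**Figure D2:**
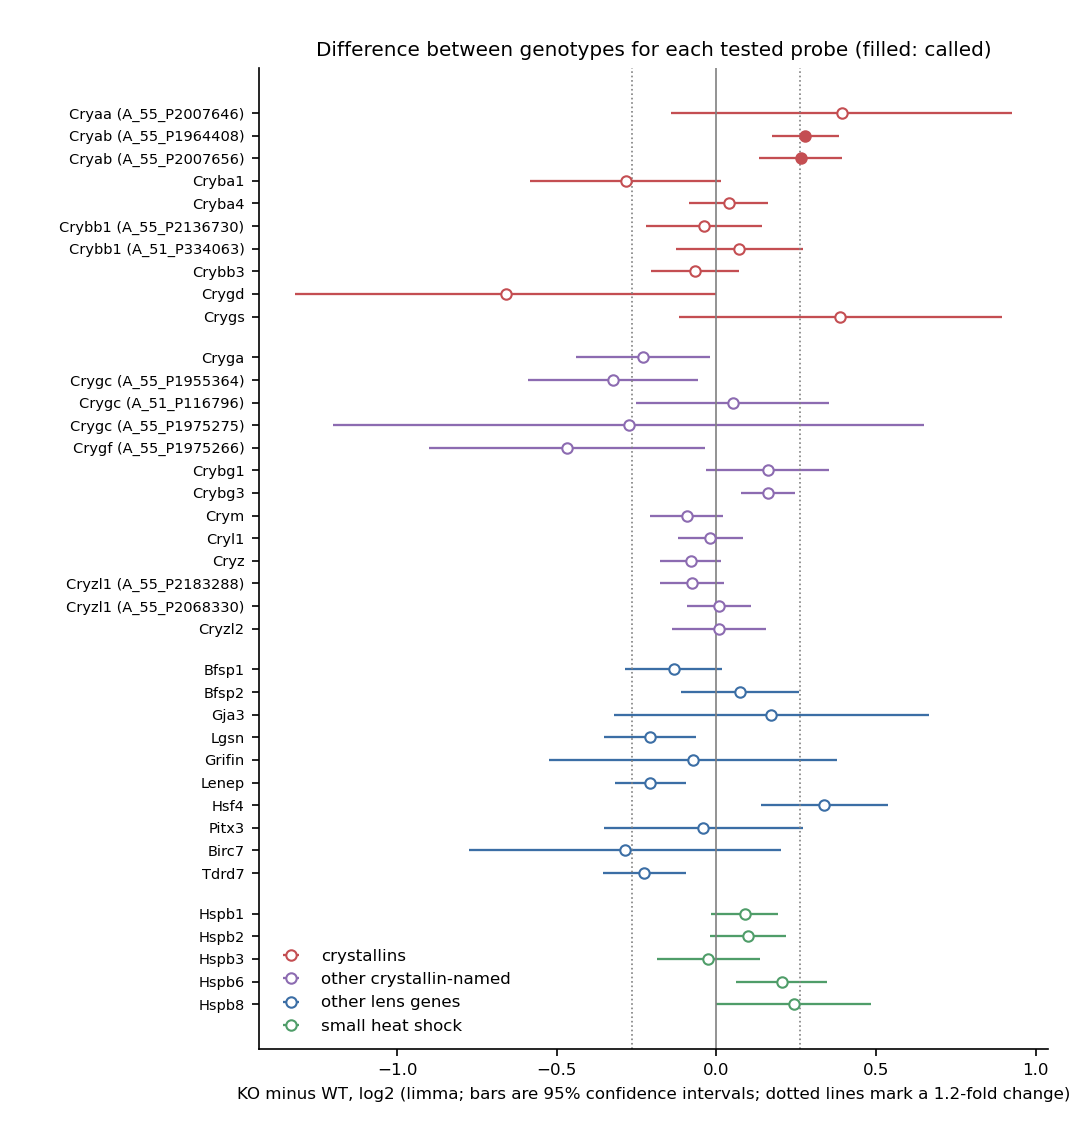
Difference between KO and WT on the log2 scale (x axis) for each tested probe of the crystallins, other genes with a crystallin name, other lens genes and small heat shock proteins, with 95% confidence intervals from limma. Filled points were called and dotted lines mark a 1.2-fold change. The 2 Cryab probes are the only filled points.

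To ask whether the crystallins rose and fell together from array to array, as a varying amount of lens in the tissue would move them, pairs of genes were correlated over the 8 arrays after each genotype's mean was removed. The 7 genes above background on all arrays showed no common movement that this design could detect. Over their 21 pairs, Pearson's r ran from −0.83 to 0.69 with a median of 0.06, and 13 pairs were positive and 8 negative. By exact permutation of arrays within genotype (two-sided, 576 permutations), 0 pairs passed an adjusted p under 0.05. The smallest adjusted p was 0.620, and 1 pair had an unadjusted p under 0.05. With 8 arrays a weak common component would not be detectable.

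The pair with an unadjusted p under 0.05 was Cryaa and Crybb1, which ran in opposite directions (r = −0.83, exact permutation p = 0.0295, Spearman's ρ = −0.74, exact permutation p = 0.0382, adjusted p = 0.620 and 0.802). It rested on 2 arrays, since r was −0.16 without WT replicate 2 and KO replicate 4. The highest r was that of Cryba4 and Crygd at 0.69 (Spearman's ρ = 0.45, exact permutation p = 0.0816 and 0.306, adjusted p = 0.656 and 0.858), and it turned to −0.43 without WT replicate 4 and KO replicate 2. The head-to-head neighbours Cryba4 and Crybb1 had an r of −0.02 (Spearman's ρ = 0.07, exact permutation p = 0.957 and 0.894, adjusted p = 0.995 and 0.939). The α-crystallins Cryaa and Cryab had an r of 0.34 (Spearman's ρ = 0.38, exact permutation p = 0.403 and 0.299, adjusted p = 0.995 and 0.858). Crygd and Crygs, both γ-crystallins, had an r of 0.33 (Spearman's ρ = 0.38, exact permutation p = 0.422 and 0.406, adjusted p = 0.995 and 0.858).

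**Figure D3:**
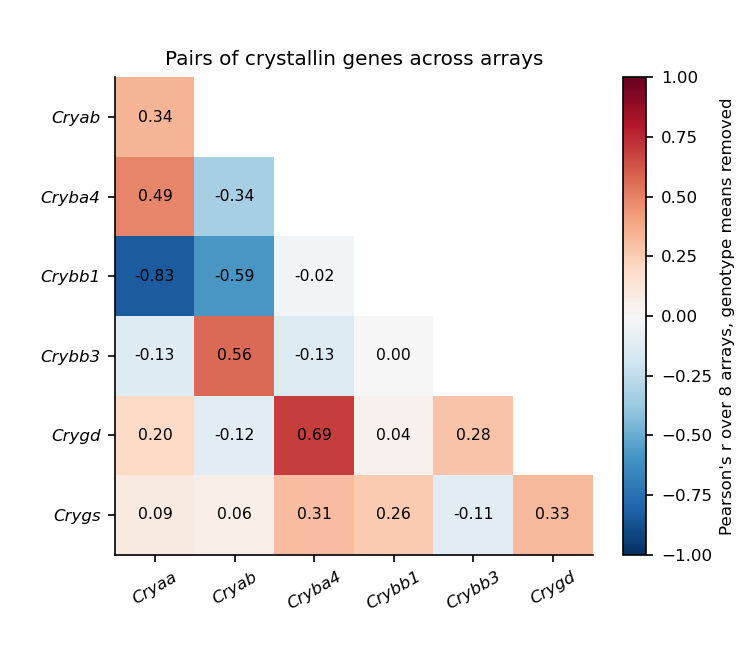
Pearson's r between the levels of 7 crystallin genes over 8 arrays with the genotype means removed, 1 cell per pair (red positive, blue negative). Values lie on both sides of 0, from −0.83 for Cryaa with Crybb1 to 0.69 for Cryba4 with Crygd.

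How far 1 gene's level can be followed at this depth can be read from genes with 2 measured probes. The deviations of the 2 Cryab probes from their genotype means had a Pearson's r of 0.68 over the 8 arrays, and their levels, genotype included, had an r of 0.94. The 2 Crybb1 probes, which were dim, had an r of 0.09 by deviations. These are given as descriptions, with the arrays shared by both probes. The array with the highest level of its genotype also changed from probe to probe. Among the 12 crystallin probes above background on at least 1 array, KO replicate 4 was the highest KO array for 5 probes, replicate 3 for 4, replicate 1 for 2 and replicate 2 for 1. Among WT arrays the counts were 4, 2, 3 and 3 for replicates 1 to 4.

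Lens genes that are not crystallins were measured beside them. Of 15 such genes, 14 had a probe and 10 were tested, and 0 were called by limma or by limma with a trend. Pitx3 and Birc7 entered the test through WT alone, and over the other 8 genes the median difference was −0.10, with 3 genes higher and 5 lower. An unadjusted p under 0.05 was reached by 4 of the 10 tested, Lgsn, Lenep, Hsf4 and Tdrd7, against 23.8% of all tested probes. The genotypes did not overlap for these 4 (40%), against 17.5% of all tested probes. Among these, Lenep had an adjusted p of 0.0480 with a difference of −0.21, below the fold limit, and Hsf4 had 0.34 with an adjusted p of 0.0610. The membrane proteins Mip and Lim2 of lens fibres were at or near background. Mip, the main water channel of fibre cells, was above background only on KO replicate 3, and Lim2, an intrinsic membrane protein, on 1 WT array. Other lens fibre genes were measured throughout. Bfsp1 and Bfsp2, the beaded filament proteins of lens fibres, were above background on all arrays, as was Grifin, a lens galectin (difference −0.07, limma adjusted p = 0.852). Grifin stood 0.61 above its WT mean on WT replicate 1. Bfsp1 and Bfsp2 had differences of −0.13 (limma adjusted p = 0.266) and 0.07 (limma adjusted p = 0.618). The summed linear level of the list, in multiples of the 75th percentile, ran from 45.5 to 51.7 in WT and from 39.5 to 43.2 in KO. Tdrd7, an RNA granule protein needed in the lens and present in other tissues, made up 88.7% to 91.2% of that sum on every array, with WT levels between 5.35 and 5.56 and KO levels between 5.13 and 5.29, a difference of −0.23 (SE 0.06, limma adjusted p = 0.0575). Without Tdrd7 the sum ran from 4.52 to 4.76 in WT and from 4.12 to 4.45 in KO. Lenep was the brightest of the remaining genes, at 1.40 to 1.49 in WT and 1.18 to 1.36 in KO on the log2 scale. That sum therefore leans on Lenep, and a sum without both genes was not computed.

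The 7 crystallins were also correlated with the 8 other lens genes above background on all arrays, a comparison chosen after the crystallin values were seen. Over the 56 pairs the median r was 0.11, with 31 positive and 25 negative, and 0 pairs had an adjusted p under 0.05. With 56 pairs and 576 permutations a single pair could not go below an adjusted p of 0.0972, so this threshold was out of reach for a lone pair. An unadjusted p under 0.05 was reached by 1 pair for Pearson's r and by 4 pairs for Spearman's ρ, 1 of them positive and 3 negative. Crybb1 and Lenep, a small protein named for lens epithelium, ran in opposite directions (r = −0.90, Spearman's ρ = −0.90, exact permutation p = 0.00174 and adjusted p = 0.0972 for both). That p is the smallest these permutations can give, and r was −0.75 without the 2 arrays farthest from the median. Cryaa and Lenep had the highest r of the 56 pairs and ran in the same direction (r = 0.86, exact permutation p = 0.0608, Spearman's ρ = 0.83, exact permutation p = 0.0312, adjusted p = 0.659 and 0.583), with an r of 0.40 without 2 such arrays. Crybb1 and Hsf4, a heat shock factor of the lens, gave a ρ of −0.81 (r = −0.61, exact permutation p = 0.0139 and 0.0816, adjusted p = 0.389 and 0.659). Crybb1 entered these pairs by its leading probe only, whose deviations had an r of 0.09 with those of its second probe. Cryba4 and Bfsp1 gave a ρ of −0.76 (r = −0.47, exact permutation p = 0.0434 and 0.257, adjusted p = 0.608 and 0.716).

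**Figure D4:**
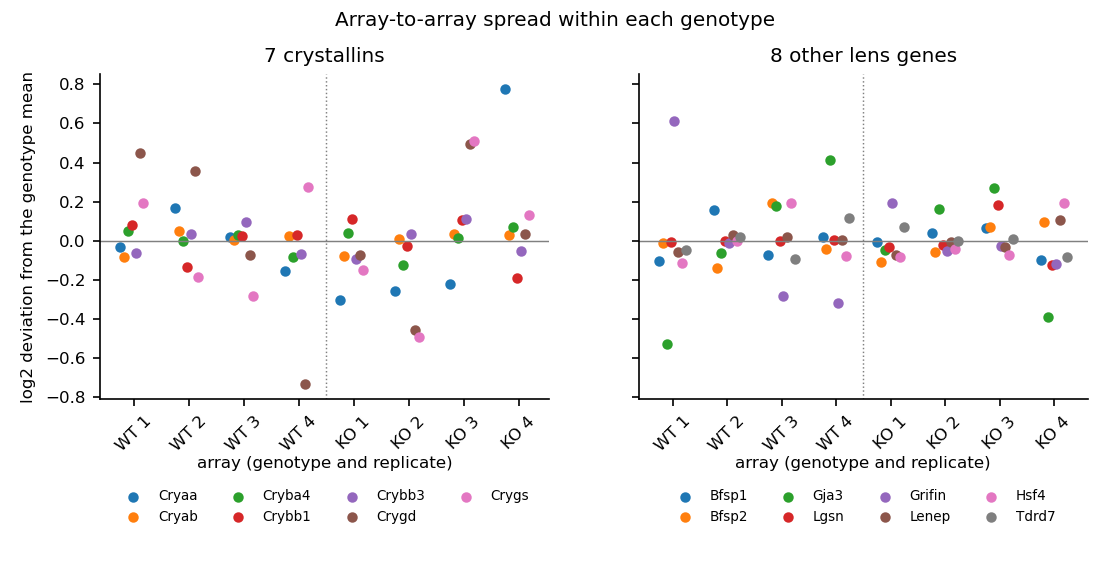
Deviation of each gene's log2 level from the mean of its genotype (y axis) on each of the 8 arrays (x axis), for 7 crystallins (left) and 8 other lens genes (right). On KO replicate 4 Cryaa stands 0.78 above its genotype's mean while the other 6 crystallins lie nearer to 0.

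A further list of genes with a crystallin name, which holds the remaining γ-crystallins and genes outside the lens crystallins, gave 0 calls by limma over 13 tested probes, with 4 at an unadjusted p under 0.05 (Cryga, 1 probe of Crygc, Crygf and Crybg3, against 23.8% of all tested probes) and 0 calls by limma with a trend. Crym, a thyroid hormone binding protein, was at 5.08 ± 0.08 (SD, n = 4) in WT and 4.98 ± 0.05 in KO (difference −0.09, limma adjusted p = 0.305). Crybg3, a large protein with β-crystallin and γ-crystallin motifs, was higher on every KO array, but its difference of 0.16 (SE 0.04, limma adjusted p = 0.0460) was below the fold limit. Among the γ-crystallins of this list, Cryga had a difference of −0.23 (limma adjusted p = 0.175). The 3 Crygc probes gave −0.32, 0.05 and −0.28 (limma adjusted p = 0.139, 0.848 and 0.720), and the last 2 entered the test through WT alone, with 2 KO arrays above background each. Crygf, which had a difference of −0.47 (limma adjusted p = 0.177), also entered through WT alone, with 3 KO arrays above background.

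The small heat shock proteins, the family of the α-crystallins, gave 0 calls by limma among 5 tested genes (median difference 0.10) and 0 by limma with a trend. Over all tested probes 2.92% were called by limma. An unadjusted p under 0.05 was reached by 1 of the 5 (Hspb6), against 23.8% of all tested probes. Hspb6 had levels of 4.13, 4.21, 4.20 and 4.14 in WT and 4.24, 4.39, 4.33 and 4.53 in KO. Its groups did not overlap, which held for 17.5% of all tested probes. Its difference was 0.20 (SE 0.06, limma adjusted p = 0.0947). Hspb8, a partner of the chaperone-assisted autophagy factor Bag3, had a difference of 0.24 (limma adjusted p = 0.215). Hspb2, the neighbour of Cryab in the genome, had a difference of 0.10 (limma adjusted p = 0.292), and Hspb1, the widely expressed family member, of 0.09 (limma adjusted p = 0.290). Whether any of these differs from the change of Cryab was not tested.

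Genes of the general heat shock response gave 0 calls by limma among 15 tested probes. An unadjusted p under 0.05 was reached by 3 (Bag3 and both probes of Hsph1), against 23.8% of all tested probes. Limma with a trend called 1 of the 15 (Bag3) and 1175 of all 33972 tested probes. Hspa8, the constitutive 70 kDa class chaperone, had a difference of 0.00 by its leading probe (limma adjusted p = 0.991). Its other probes gave 0.08 and 0.18 (limma adjusted p = 0.318 and 0.304). Bag3 had a difference of 0.27 (SE 0.06, limma adjusted p = 0.0508). The 10 genes for regulators of crystallin transcription also gave 0 calls by limma and 0 calls by limma with a trend. An unadjusted p under 0.05 was reached by 2 of their 11 tested probes (Sox2 and Otx2), against 23.8% of all tested probes. Maf, whose recognition core is marked in the sequences above, had a difference of 0.13 (SE 0.06, limma adjusted p = 0.280), and Pax6, a regulator of eye development, had 0.10 and −0.10 by its 2 probes (limma adjusted p = 0.542 and 0.359). Otx2, a regulator of photoreceptor fate, had −0.13 (SE 0.04, limma adjusted p = 0.0873).

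Genes of several other lists moved with genotype beside Cryab, and their part in its difference was not tested. Of 10 Müller glia genes, 3 were called higher in KO, namely Apoe (0.29), Clu (0.30) and Kcnj10 (0.31), which encode 2 secreted lipid carriers and a potassium channel. The summed level of that list ran from 352 to 371 in WT and from 419 to 428 in KO, and 9 of its 11 probes did not overlap between genotypes. These counts and those that follow stand against 1.38% of all tested probes called higher, 1.54% called lower and 17.5% that did not overlap. Of 7 genes of astrocytes and reactive glia, 4 were called higher (Cebpd, Edn2, Osmr and Stat3, with differences of 0.90, 1.90, 0.41 and 0.38), 6 of 9 probes (66.7%) did not overlap, and the summed level ran from 9.37 to 10.74 in WT and from 13.2 to 14.9 in KO. Gfap, S100b and Pax2 of this list were not called by any tested probe (limma adjusted p from 0.0837 to 0.686). Of 8 microglia genes, 5 were called higher (Tyrobp, C1qc, C1qb, C1qa and Aif1, from 0.45 to 0.65), 8 of 11 probes did not overlap, with summed levels from 9.71 to 10.4 in WT and from 12.7 to 13.0 in KO. The rod genes Sag and Prph2 were called lower (−0.36 and −0.28). Prph2 was called by its second probe only, and its leading probe gave −0.26 (limma adjusted p = 0.167).

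Markers of neighbouring eye tissues and of blood gave 0 calls by limma. An unadjusted p under 0.05 was reached by Tgfbi of the cornea list (−0.39, limma adjusted p = 0.0975), which limma with a trend called, and by Rpe65 of the pigment epithelium (0.25, limma adjusted p = 0.208). Of all tested probes 23.8% had an unadjusted p under 0.05. Col9a1 of the cornea, iris and ciliary body list had a difference of −0.03 (limma adjusted p = 0.750), Ttr of the pigment epithelium 0.07 (limma adjusted p = 0.758) and Hba-a1 of blood 0.06 (limma adjusted p = 0.784). The summed levels overlapped between the genotypes in each of the 3 lists, from 16.8 to 19.6 in WT and 16.9 to 18.2 in KO for the first, from 21.6 to 27.5 and 21.9 to 27.8 for the second, and from 10.2 to 13.6 and 11.1 to 16.05 for the third.

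The genes whose array-to-array pattern was most like that of a crystallin were searched among 14923 genes, with the genotype means removed and over 8 arrays. For Cryab they were Cend1, Tmed3 and Akirin2 (r = 0.99, 0.98 and 0.98), for Cryaa Sik2, Calhm2 and Tmem43 (r = 0.98, 0.98 and 0.97), and for Crygd Rusc1, Cemip and Chadl (r = 0.99, 0.99 and 0.98). None of them was a lens gene of the list. For Cryab 317 genes had an r over 0.9, against 36 for Cryaa and 36 for Crygd, all over the same 8 arrays. Values this high were found for each of them, so they are given as descriptions. Why the count was larger for Cryab was not tested.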

How the data were processed

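Total RNA of whole retina was taken from 4 WT and 4 KO samples (groups and numbers from the labels), hybridised by the authors to Agilent SurePrint G3 mouse arrays in 1 colour and quantified with Feature Extraction 10.7.1.1 (array design on mm9). The deposited scanner files hold background-subtracted intensity on a linear scale. The deposited series table holds the authors' log2 values after a 75th percentile shift in GeneSpring, which differed from those used here by a constant per array (0.12 to 0.15, SD at most 3.0e-07 over 55249 probes) and served as an alternative. The number of unused per-sample columns was 0.

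The processed signal of each spot was log2 transformed, and the 75th percentile of the 59305 non-control spots on that array was subtracted. Outlier spots (86 to 147 per array) were left out and repeat spots averaged. A probe was tested when well above background on all 4 arrays of a genotype (33972 of 55681). The number of arrays limits the precision. RefSeq transcripts named 26413 probes (47.4%). Genotypes were compared with limma 3.58.1 (lmFit and eBayes, R 4.3.3), no covariate was used, and p-values were adjusted by Benjamini-Hochberg across the tested probes. Pairs of genes were compared by exact permutation within genotype. The fits were tested on simulated data. All crystallin probes are named, and of each list up to 5 called genes or else the gene with the highest signal, which only picks an example. Other genes (among them Mip, Lim2, Bfsp1, Bfsp2, Grifin, Hspb1, Hspb2, Hspb6, Hspb8, Bag3, Maf, Pax6, Cryga, Crygc, Crygf, Crybg3, Lenep, Lgsn, Pitx3, Birc7, Hsf4, Hsph1, Sox2, Tgfbi, Rpe65, Gfap, S100b and Pax2) were named after their values were seen. Some genes of the lists are not reported here. The members and lists were chosen with earlier results of these data known.

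Alternatives were quantile, median, detected-probe percentile and cyclic loess scaling, normexp background correction (offset 50, on median signals because mean signals were not used here), the authors' values, outlier spots kept, the replicate number as a block, other filters, thresholds and tests, the mean of a gene's probes, genotype means kept, and single arrays left out. The normexp values were also quantile normalized.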

Additional observations from a re-analysis of the deposited data

Results flagged for a closer look

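Within the KO group, replicate 4 stood far above the other 3 arrays for 2 crystallin probes. The Cryaa probe A_55_P2007646 reached −2.29 on it, while the next highest KO array lay at −3.29. The Cryba1 probe reached −4.63 on it, the only KO array on which that probe was well above background, while the next highest KO array lay at −5.07. In all, 24 groups of 4 arrays were examined in this way, and chance marks about 1 in 20. Of the 8 other lens genes above background on all arrays, 3 had their highest KO level on replicate 4 (Bfsp2, Lenep and Hsf4, at 0.10, 0.11 and 0.20 above the KO mean) and 5 had their lowest KO level there. Mip was not above background on that array. KO replicate 3 was the highest KO array for 4 of 7 crystallins and 3 of 8 other lens genes and the lowest for 0 in either list, and it was the only array on which Mip was above background.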

How the results depend on the processing

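The 2 calls of Cryab were close to their limits, while 0 pairs of crystallins passed under 9 alternatives that kept all arrays. The 8 that left out 1 array could not show a lone pair, since 144 permutations allow an adjusted p of no less than 0.146. The count of called crystallin probes, 2, became 0 with the median shift, with no filter on dim probes or with a minimum fold of 1.5, and ran from 0 to 2 when single arrays were left out. The count over all probes, 992, became 246 without the filter, 138 at a fold of 1.5, 1869 with no minimum fold, and ran from 391 to 1182 when single arrays were left out. Both Cryab differences kept their direction in all alternatives, from 0.25 to 0.32 for the brighter probe (call lost in 9 of 22 alternatives) and from 0.23 to 0.29 for the dimmer (11 of 22). With the replicate number as a block, 1 crystallin probe and 395 probes in all were called. Same-numbered samples had correlations of deviations of 0.28, 0.07, 0.05 and 0.12, and each sample correlated best with its own number. Same-numbered arrays also shared a column of the slide, so pairing and a column effect cannot be told apart. Because not all correlations were over 0.1, the main fit did not pair the samples, and a column effect was not excluded. The number of calls higher and lower, 470 and 522, became 563 and 372 with the percentile of probes detected on all arrays, 629 and 341 with cyclic loess, 518 and 389 with quantile normalization, and 424 and 278 with normexp correction. Differences near 0 reversed for Cryba4 with normexp correction (−0.0085), for the first Crybb1 probe with cyclic loess (0.0186) and without KO replicate 4 (0.0246), and for the second without KO replicate 1 (−0.0073), with ranges over single arrays left out of −0.084 to 0.025 and −0.0073 to 0.135. The cause of these changes was not tested, except that fewer samples or more probes entered some fits. The methods' t-test called both Cryab probes and 0 probes in each list in which limma called 0. No slide block was run because all arrays shared 1 slide, and no replicate block was run for the pairs. Dim probes limit what can be seen of Cryba2 and Crybb2.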
